A study of Arabidopsis thaliana with 44 samples.

Results

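AT5G23910 is an Arabidopsis thaliana gene known in general annotation as a kinesin-like gene. It was followed here across 22 groups of whole seedlings, irradiated or not, of 2 genotypes. It is 1 of the 13355 genes with a measured value, and the rule was simply the probe set annotated to that single locus. It has 1 probe set, 249809_at. The gene table used for names lists it under its locus code alone, with no product, so the kinesin-like name was not checked against the files. The gene was chosen by its rise in wild-type (WT) seedlings 1.5 and 3 h after both radiations and the genotype difference at 1.5 h. Values of AT5G23910 at 1.5 and 3 h are therefore given as description, with no test. The tests on this gene use the later hours and the unirradiated groups. The rise and the genotype difference used in the choice were measured against the unirradiated groups of day 1. Those arrays also enter the tests of unirradiated groups and the tests of later hours that are set against day 1. Such tests are therefore not independent of the choice.

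The 22 groups held 2 arrays each, 44 in all, and each array carried RNA pooled from 30 to 40 plants. Seedlings of atm-1, a mutant in the DNA damage kinase gene ATM, were sampled 1.5, 6, 12 and 24 h after 30 Gy of HZE (accelerated iron nuclei) and at the same hours after 100 Gy of gamma rays. WT seedlings were sampled 1.5, 3, 6, 12 and 24 h after each radiation. Unirradiated atm-1 and WT seedlings were collected on day 1 and on day 2. No atm-1 group was sampled at 3 h. Seedlings were 6 days old in the 24 h groups and in the controls of day 2, and 5 days old otherwise. Groups up to 12 h were set against the day 1 control of their genotype and 24 h groups against the day 2 control. Controls were collected in the morning. The 6 and 12 h groups, and the HZE groups of every hour, were sampled in the afternoon, evening or night. Their changes from control, and all steps between hours, therefore also hold a difference in time of day. It cannot be told apart there from the radiation and the time since it. Both genotypes were sampled at the same clock times. Nothing in the labels tells whether the 2 arrays of a group came from separate cultures, so p-values measure the spread between these samples, which may be technical. HZE was given in 2 runs that the labels do not tie to replicates. The ATM transcript is not measured by a probe set with a single gene here, so the genotype labels were not checked on the mutated gene. Array medians lay between 5.73 and 5.98 on the log2 scale, and the lowest was atm-1 gamma 6 h replicate 1. Replicates correlated at 0.989 to 0.997 across genes.

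Kinesins are motor proteins that use ATP to move along microtubules or to take microtubules apart. In plants they have roles in the spindle, in the phragmoplast that builds the new cell wall between daughter cells, and in cell growth. ATM is a kinase that responds to DNA double-strand breaks. In Arabidopsis it phosphorylates the transcription factor SOG1, which activates many damage response genes, including genes of DNA repair and of cell cycle arrest.

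All levels of AT5G23910 below are deposited log2 RMA values, on which a difference of 1 is a doubling of signal. In WT seedlings the gene stood highest at the first hours after either radiation. After HZE the 1.5 h arrays of WT read 9.50 and 9.61, and the 3 h arrays read 9.49 and 9.60, against 4.49 and 4.46 in unirradiated WT of day 1. After gamma rays the 1.5 h arrays read 9.45 and 9.58 and the 3 h arrays read 9.79 and 9.36, set against the same controls. All 8 irradiated WT arrays of these hours lay far above both controls, and the 4 group means lay between 9.52 and 9.58.

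The difference of means from the WT control was 5.07 after HZE both at 1.5 h (33.6-fold) and at 3 h (33.5-fold). After gamma rays it was 5.04 at 1.5 h (32.9-fold) and 5.10 at 3 h (34.3-fold). Among all 13355 genes AT5G23910 had the highest such value at both hours after gamma rays, and it ranked 6 at 1.5 h and 10 at 3 h after HZE. These ranks describe the measurements for which the gene was picked. The WT control levels lay under every array's median and under the mean level of 5 below which genes are called dim here. Folds against them therefore rest on a low signal. The means of the atm-1 controls, and of atm-1 at 1.5 and 6 h, also lay under every array's median. Folds against control and small differences in atm-1 rest on low signals too.

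In atm-1 seedlings at 1.5 h the level lay close to the control after HZE, while after gamma rays both arrays lay above both controls. The arrays read 4.98 and 4.82 after HZE and 5.46 and 5.66 after gamma rays, against 5.04 and 4.95 in unirradiated atm-1 of day 1. The difference of means was -0.10 after HZE and 0.56 after gamma rays. The atm-1 change minus the WT change was -5.17 at 1.5 h after HZE and -4.48 at 1.5 h after gamma rays, also as description.

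**Figure D1:**
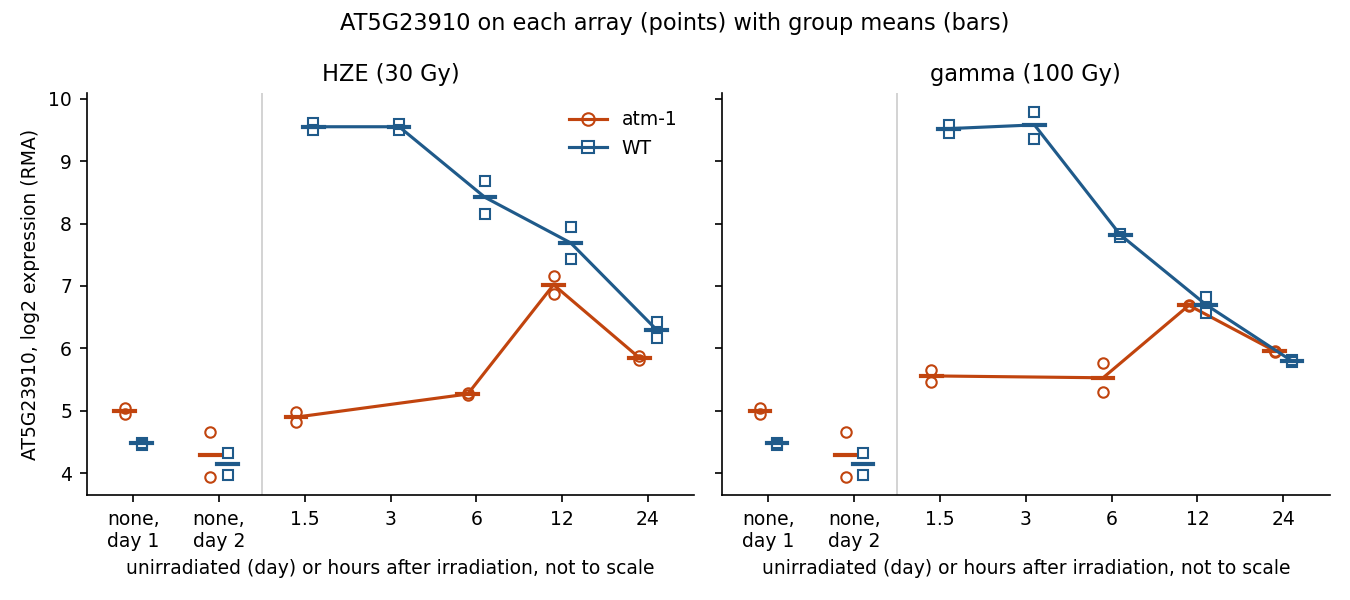
Log2 RMA level of AT5G23910 on each of the 44 arrays (circles for atm-1, squares for WT) with the mean of each group (bars, joined by lines), by hours after HZE and after gamma rays, with the unirradiated arrays of both days at the left of each panel. WT means sit at 9.52 to 9.58 at 1.5 and 3 h and at 6.30 after HZE and 5.80 after gamma rays at 24 h, while atm-1 means sit between 4.90 and 5.56 up to 6 h and reach 7.02 after HZE and 6.69 after gamma rays at 12 h.

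From 6 h onward the WT level came down, yet it was still above control at every hour tested. After HZE, the WT pair of 6 h read 8.15 and 8.68, the 12 h pair 7.94 and 7.44, and the 24 h pair 6.43 and 6.17. After gamma rays the pair of 6 h read 7.79 and 7.84, the 12 h pair 6.57 and 6.82, and the 24 h pair 5.81 and 5.79. The unirradiated WT arrays were 4.49 and 4.46 (day 1) and 4.33 and 3.98 (day 2). No irradiated WT array overlapped an unirradiated one at any hour.

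The WT difference from control after HZE was 3.94 at 6 h (SE 0.19, limma adjusted p = 1.39e-16), 3.21 at 12 h (adjusted p = 2.58e-14) and 2.15 at 24 h (adjusted p = 4.47e-09). These are 15.3-fold, 9.26-fold and 4.44-fold. After gamma rays it was 3.34 at 6 h (SE 0.19, adjusted p = 1.62e-14), 2.22 at 12 h (adjusted p = 8.25e-11) and 1.65 at 24 h (adjusted p = 3.51e-08), or 10.1-fold, 4.66-fold and 3.13-fold. Of all genes, 14.1% were called higher at 6 h, 13.6% at 12 h and 2.39% at 24 h after HZE in WT, and 11.8%, 13.6% and 14.1% at these hours after gamma rays. By size of increase in WT, AT5G23910 ranked 22 at 6 h, 37 at 12 h and 10 at 24 h after HZE. After gamma rays it ranked 10 at 6 h, 61 at 12 h and 109 at 24 h.

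In atm-1 the course differed. After HZE the atm-1 pair of 6 h read 5.28 and 5.26, the 12 h pair 7.16 and 6.87, and the 24 h pair 5.81 and 5.88. After gamma rays the pair of 6 h read 5.30 and 5.76, the 12 h pair 6.69 and 6.68, and the 24 h pair 5.95 and 5.96. The unirradiated atm-1 arrays were 5.04 and 4.95 (day 1) and 4.66 and 3.94 (day 2). The 12 h arrays were the highest of the mutant, above every other atm-1 array of either radiation.

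At 6 h after HZE the atm-1 difference from control was 0.27 (95% interval -0.12 to 0.66, adjusted p = 0.367), which did not pass the test, but with controls of both days it was 0.62 and passed (adjusted p = 0.00409). At 6 h after gamma rays it was 0.53 (adjusted p = 0.0413), a call lost without atm-1 gamma 6 h replicate 2 (0.30, adjusted p = 0.334) or without either atm-1 control of day 1 (0.58 and 0.49, adjusted p = 0.101 and 0.185). At that hour 7.54% of all genes were called higher. At 12 h it was 2.02 after HZE (adjusted p = 1.46e-09) and 1.69 after gamma rays (adjusted p = 2.94e-08), or 4.05-fold and 3.22-fold. At 24 h it was 1.55 after HZE (adjusted p = 4.88e-06) and 1.66 after gamma rays (adjusted p = 4.03e-08). The share of all genes called higher in atm-1 was 8.72% at 12 h and 1.13% at 24 h after HZE, and 11.4% at 12 h and 12.8% at 24 h after gamma rays. By size of increase in atm-1, AT5G23910 ranked 53 at 12 h and 35 at 24 h after HZE, and 103 at 12 h and 95 at 24 h after gamma rays.

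The genotype difference of AT5G23910, taken as the atm-1 change minus the WT change, was smaller at the later hours. After HZE it was -3.67 at 6 h (SE 0.27, adjusted p = 5.4e-11) and -1.19 at 12 h (adjusted p = 0.00593). At 24 h after HZE it was -0.60 (95% interval -1.15 to -0.05, adjusted p = 0.585), which did not pass after adjustment over all genes. After gamma rays it was -2.80 at 6 h (SE 0.27, adjusted p = 2.04e-08). At 12 h after gamma rays it was -0.53 (95% interval -1.08 to 0.02, adjusted p = 0.458) and at 24 h it was 0.01 (95% interval -0.54 to 0.56, adjusted p = 0.996). Of all genes, 3.29% were called lower in this comparison at 6 h after HZE, 2.71% at 12 h after HZE and 4.04% at 6 h after gamma rays. The call at 12 h after HZE was lost without WT HZE 12 h replicate 1 (-0.94, adjusted p = 0.0657) and without atm-1 HZE 12 h replicate 2 (-1.04, adjusted p = 0.0551).

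**Figure D2:**
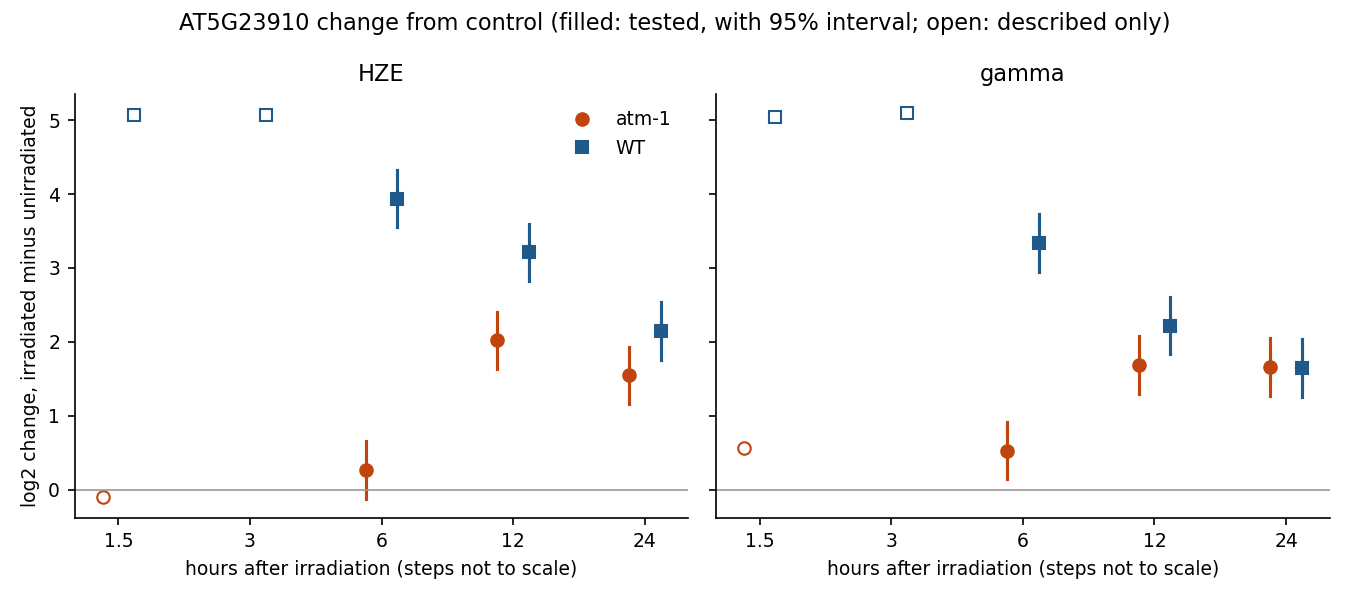
Log2 difference of AT5G23910 from the unirradiated group of the same genotype, by hours after HZE and after gamma rays, for atm-1 (circles) and WT (squares). Filled points were tested and carry the model's 95% interval, and open points are described only. The WT differences are 2.15 after HZE and 1.65 after gamma rays at 24 h, the lowest of each WT series. The atm-1 differences after HZE are 2.02 at 12 h and 1.55 at 24 h. After gamma rays they are nearly equal, at 1.69 at 12 h and 1.66 at 24 h.

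The time of the increase in atm-1 was tested between neighbouring hours. The 12 h minus 6 h difference in atm-1 was 1.75 after HZE (SE 0.19, adjusted p = 2.62e-08), or 3.36-fold, and 1.16 after gamma rays (adjusted p = 4.78e-05), or 2.23-fold. In WT the same difference was -0.73 after HZE (adjusted p = 0.00526) and -1.12 after gamma rays (adjusted p = 5.43e-05). The level of AT5G23910 thus rose between 6 and 12 h in atm-1, where 9.9% of all genes were called higher after HZE and 11.5% after gamma rays. It fell between those hours in WT, where 10.4% were called lower after HZE and 6.83% after gamma rays. The WT fall after HZE was not called without WT HZE 6 h replicate 2 (-0.46, adjusted p = 0.197) or without WT HZE 12 h replicate 2, at -0.48.

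From 12 to 24 h the level fell in all 4 series. The 24 h minus 12 h difference was -1.17 in atm-1 after HZE (adjusted p = 1.9e-05) and -0.73 in atm-1 after gamma rays (adjusted p = 0.00477). It was -1.39 in WT after HZE (adjusted p = 1.58e-06) and -0.90 in WT after gamma rays (adjusted p = 0.000483). Between 10.2% and 14.5% of all genes were called lower in these comparisons, at 11.9% for atm-1 after HZE and 11.6% for atm-1 after gamma rays. Unirradiated atm-1 averaged 4.30 on day 2 and 5.00 on day 1, and the atm-1 change from control after gamma rays was 1.66 at 24 h and 1.69 at 12 h.

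A further contrast set the 12 h minus 6 h difference in atm-1 against that in WT. It was added after the levels had been seen. It was 2.47 after HZE (SE 0.27, 95% interval 1.92 to 3.02, adjusted p = 4.42e-06) and 2.27 after gamma rays (SE 0.27, 95% interval 1.72 to 2.82, adjusted p = 6.94e-06). The test called 0.427% of all genes higher after HZE and 1.83% after gamma rays, and by size AT5G23910 ranked 2 after HZE and 5 after gamma rays. The gene that ranked 1 after HZE, ECS1, had a difference of 4.20 with an SE of 1.35 and did not pass (adjusted p = 0.191).

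HZE and gamma rays were compared at the same hour, although the hours fall at different times of day: the irradiation schedules put HZE groups later on the clock. In WT the HZE minus gamma difference of AT5G23910 was 0.03 at 1.5 h and -0.03 at 3 h, as description of hours used in choosing the gene. From 6 h the HZE level was the higher one in WT, by 0.60 at 6 h (adjusted p = 0.0198), 0.99 at 12 h (adjusted p = 0.000217) and 0.50 at 24 h (adjusted p = 0.0424). The 12 h value corresponds to 1.99-fold, and 11.7% of all genes were called higher after HZE at 6 h, 8.88% at 12 h and 17.5% at 24 h. The HZE arrays lay above the gamma arrays at each of these 3 hours with no overlap. The 6 h call was lost without WT gamma 6 h replicate 1 (0.58), without replicate 2 of that group (0.62) or without WT HZE 6 h replicate 2 (0.34). The 24 h call was lost without either WT gamma 24 h array or without WT HZE 24 h replicate 1, with values from 0.37 to 0.63 over the arrays left out. It was also lost after cyclic loess (0.42, adjusted p = 0.0924) and with array medians aligned (0.47, adjusted p = 0.0514).

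In atm-1 the HZE minus gamma difference at 1.5 h was -0.66, given without a test since that hour was also used in choosing the gene. At 6 h the difference was -0.26 (adjusted p = 0.351), at 12 h it was 0.33 (adjusted p = 0.427) and at 24 h it was -0.11 (adjusted p = 0.748), none of which passed. The HZE and gamma samples differ in dose, in clock time and in particle type, and these cannot be told apart here.

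A pair of groups that were both sampled in the evening gave a second comparison, HZE at 6 h and gamma rays at 12 h. In atm-1 the HZE 6 h level was lower, 5.28 and 5.26 against 6.69 and 6.68 in the gamma 12 h arrays, a difference of -1.42 (SE 0.19, adjusted p = 1.3e-06, against 9.4% of all genes called lower). In WT the HZE 6 h level was higher, 8.15 and 8.68 against 6.57 and 6.82 in the gamma 12 h arrays, a difference of 1.72 (adjusted p = 2.28e-08, against 10.8% called higher). These groups also differ in hours since irradiation, in radiation and in dose. HZE at 1.5 h and gamma rays at 6 h were both sampled in the afternoon, and their means differed by -0.63 in atm-1 and by 1.73 in WT, given without a test.

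Unirradiated atm-1 and WT seedlings differed by 0.33 over both days (SE 0.13, 95% interval 0.06 to 0.61, adjusted p = 0.291), which did not pass. Without the second atm-1 control of day 2 the difference was 0.51 (adjusted p = 0.0497). Day 2 controls of both genotypes lay 0.51 below day 1 controls (difference -0.51, adjusted p = 0.00402, against 12.8% of all genes called lower), and without the same array that difference was -0.33 (adjusted p = 0.0718). The 24 h changes rest on the day 2 controls. The day 1 controls in both unirradiated comparisons were also used in choosing the gene, so these p-values are not independent of the choice.

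Over all 22 groups the mean level ran from 4.15 in unirradiated WT of day 2 to 9.58 in WT 3 h after gamma rays, a range of 5.42. The SD of the group means was 1.80, which ranked 19 among all genes, and the pooled SD within groups was 0.21. In descending order of mean level, the first 4 groups were WT gamma 3 h, WT HZE 1.5 h, WT HZE 3 h and WT gamma 1.5 h, whose arrays overlap. The widest gap in the order separated them from WT HZE 6 h, which was followed by WT gamma 6 h, WT HZE 12 h, atm-1 HZE 12 h, WT gamma 12 h and atm-1 gamma 12 h. Below these came WT HZE 24 h, atm-1 gamma 24 h, atm-1 HZE 24 h and WT gamma 24 h. Then came atm-1 gamma 1.5 h, atm-1 gamma 6 h and atm-1 HZE 6 h. The lowest 5 were atm-1 control day 1, atm-1 HZE 1.5 h, WT control day 1, atm-1 control day 2 and WT control day 2. Of the 21 neighbouring pairs in this order, 10 had overlapping arrays and 10 had means further apart than the pooled SD.

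Genes whose course was most like that of AT5G23910 were sought by Pearson correlation over the 22 group means, among the 1872 genes whose group means had an SD of at least 0.5. The points share the arrays, the day and the controls, and the correlations are descriptive. ATMND1, which acts with HOP2 in meiotic recombination, had the highest correlation at 0.968. AT5G48020 followed at 0.965, AT5G67460 at 0.955, AT5G27760 at 0.952, AT3G42860 at 0.95, AT2G47680 at 0.95, AT3G20490 at 0.948, AT1G23000 at 0.943, AT5G11460 at 0.942 and AT3G02400 at 0.941. In all, 27 genes correlated at 0.9 or more and 66 at 0.8 or more. When correlations were taken by rank, 6 of the 10 stayed among the 10 highest, and over WT groups alone 7 did. The first place also changed, to AT5G48020 by rank and to AT5G27760 over WT groups alone.

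The 10 genes were chosen for likeness, so their own values describe the choice. At 1.5 h in WT their differences from control ran from 1.72 to 4.31 after gamma rays, with AT5G23910 at 5.04. In atm-1 their differences from control at 6 h ran from -0.11 to 1.07 after HZE and from -0.23 to 1.92 after gamma rays, with AT5G23910 at 0.27 and 0.53. The 12 h minus 6 h difference of AT5G23910 in atm-1 lay outside the range of the others. In atm-1 after HZE it ran from -0.16 to 0.81 over the 10 genes, with a median of 0.27, against 1.75 for AT5G23910. In atm-1 after gamma rays it ran from 0.06 to 0.44, with a median of 0.30, against 1.16 for AT5G23910. In WT the gene lay inside their range, at -0.73 after HZE where they ran from -1.14 to 0.02, and at -1.12 after gamma rays where they ran from -1.43 to -0.37. The atm-1 minus WT difference of this step had the same sign in all 10 genes as in AT5G23910. It ran from 0.12 to 1.36 after HZE, against 2.47 for AT5G23910, and from 0.45 to 1.72 after gamma rays, against 2.27.

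**Figure D3:**
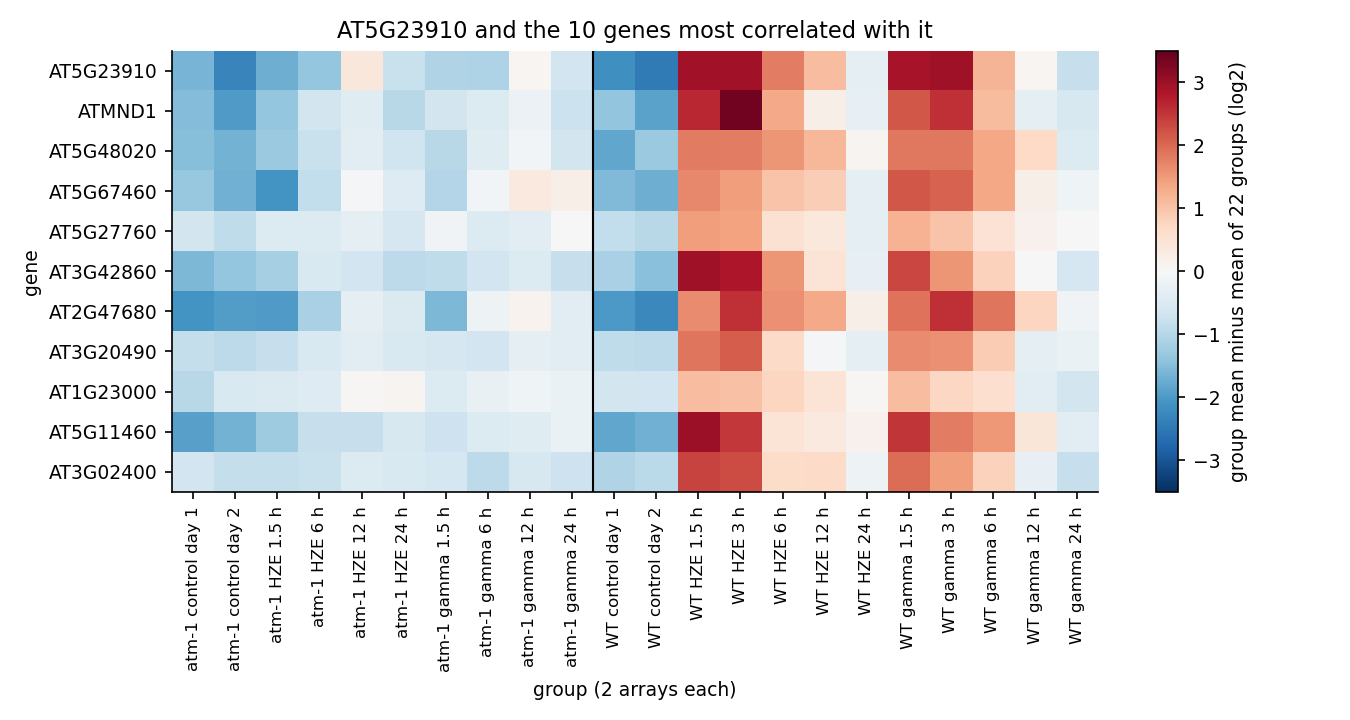
Heat map of AT5G23910 and the 10 genes most like it (down) over the 22 groups (across), where colour gives the group mean minus that gene's own mean over the groups on the log2 scale. The highest values stand at 1.5 and 3 h in WT, and in atm-1 the 12 h minus 6 h step of AT5G23910 (1.75 after HZE and 1.16 after gamma rays) exceeds that of each of the 10.

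The kinesin list held 20 genes whose symbol or synonym names a kinesin or microtubule motor, so it does not cover the whole family. Of these 20, only 2 have a probe set with a single gene. KINESIN-13A, of the kinesin class that takes microtubules apart, correlated with AT5G23910 at 0.04 over the 22 group means. KINESIN-12B, a kinesin of the phragmoplast, correlated at -0.48. AT4G14330, a kinesin that the name search did not find, is given with the mitosis genes and correlated at -0.49. KINESIN-13A was lower than control early after HZE, at -0.51 in atm-1 at 1.5 h (adjusted p = 2.24e-05) and in WT at -0.50 at 1.5 h (adjusted p = 1.94e-05) and -0.46 at 3 h (adjusted p = 6.3e-05). Against control it was not called after gamma rays at any hour, or after HZE from 6 h on. Its 12 h minus 6 h difference after gamma rays was -0.32 in WT (adjusted p = 0.0109) and 0.19 in atm-1 (adjusted p = 0.133). The atm-1 minus WT difference of that step was 0.51 after gamma rays (adjusted p = 0.0215) and -0.01 after HZE (adjusted p = 0.993). KINESIN-12B was lower than control at 6 h, with -0.84 in atm-1 after HZE (adjusted p = 3.12e-05) and -0.82 in WT after HZE (adjusted p = 2.92e-05). At 12 h after HZE it was higher in atm-1, by 0.43 (adjusted p = 0.0327), and lower in WT, at -0.57 (adjusted p = 0.0022). At 12 h after gamma rays it lay at -0.04 in atm-1 (adjusted p = 0.883) and was lower in WT, at -0.54 (adjusted p = 0.00376). The atm-1 call after HZE is 1 of the 2 mitosis calls that become 1 when single arrays are left out, as given with the mitosis genes. AT5G23910 was above control in WT at those hours, where KINESIN-12B was below it. For KINESIN-12B the atm-1 minus WT difference of the 12 h minus 6 h step was 1.02 after HZE (adjusted p = 0.00754). After gamma rays it was 0.46 (adjusted p = 0.224). Of all genes, 0.427% were called higher in this comparison after HZE and 1.83% after gamma rays. Counts of this step with arrays left out are given with the mitosis genes.

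A list of 23 genes of mitosis had 6 measured members. They were the Aurora kinase genes AUR1, AUR2 and AUR3, which act in cell division, and 3xHMG-box2, a chromatin protein of dividing cells. KINESIN-12B and AT4G14330 were the measured members among the cell division kinesins. At 6 h after HZE, 5 of 6 were lower in atm-1 (median -1.09, against 11.2% of all genes called lower) and 6 of 6 in WT (median -1.47, against 17.5%). At 6 h after gamma rays, 5 of 6 were lower in atm-1 (median -0.92, against 15.4%) and 6 of 6 in WT (median -1.26, against 13.9%). The medians over all genes tested lay between -0.05 and 0.00 in these comparisons. With genes of a mean level under 5 left out, KINESIN-12B and AT4G14330 were not tested, and 3 members were called lower in atm-1 at 6 h after gamma rays. The mitosis genes are also markers of dividing cells, and in whole seedlings fewer cells of a type and less RNA per cell cannot be told apart.

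At 12 h the mitosis genes were lower than control in WT, while in atm-1 few passed the test. After HZE, 2 of 6 were higher and 1 was lower in atm-1 (median 0.23, against 8.72% of all genes called higher and 9.57% called lower), while 6 of 6 were lower in WT (median -1.12, against 15.4%). After gamma rays, 1 was higher and 1 lower in atm-1 (median -0.07, against 11.4% and 12.1%), the 1 higher becoming 0 without either atm-1 gamma 12 h array or atm-1 control day 1 replicate 1, while 6 of 6 were lower in WT (median -1.11, against 14.7%). In atm-1 after HZE, 3xHMG-box2 stood 1.08 above control (adjusted p = 0.00024) and AUR2 lay at -0.78 (adjusted p = 0.00213). The 2 genes called higher in atm-1 after HZE became 1 without either atm-1 HZE 12 h array or without atm-1 control day 1 replicate 1. The 1 called lower became 0 without atm-1 HZE 12 h replicate 2 or atm-1 control day 1 replicate 2. At 12 h the atm-1 change minus the WT change passed as higher for 6 of 6 after HZE (median 1.11) and for 3 of 6 after gamma rays (median 0.98). Of all 13355 genes, 626 were called in either direction in this comparison after HZE and 171 after gamma rays.

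Between 6 and 12 h in atm-1, where AT5G23910 rose by 1.75 after HZE and 1.16 after gamma rays, mitosis genes also rose. After HZE 6 of 6 did (median 1.42, against 9.9% of all genes called higher), with 3xHMG-box2 at 2.42 (adjusted p = 3.45e-10), AUR1 at 2.15 (adjusted p = 3.08e-11) and AUR2 at 1.58 (adjusted p = 7.05e-08). After gamma rays 5 of 6 did (median 0.65, against 11.5%), and 3 without atm-1 gamma 6 h replicate 1 or atm-1 gamma 12 h replicate 2. In WT, where AT5G23910 fell between these hours, 2 of 6 rose after HZE (median 0.26, against 9.61%) and 1 of 6 after gamma rays (median 0.07, against 7.98%). The 2 became 1 without either WT HZE 6 h array or WT HZE 12 h replicate 1. The atm-1 minus WT difference of this step passed as higher for 5 of 6 after HZE (median 1.17, against 0.427%) and for 1 of 6 after gamma rays (median 0.55, against 1.83%). The count of 5 became 3 without WT HZE 12 h replicate 2 and 1 without atm-1 HZE 12 h replicate 1. The count of 1 after gamma rays became 0 without either WT gamma 12 h array, WT gamma 6 h replicate 1 or atm-1 gamma 12 h replicate 2, and 2 without atm-1 gamma 6 h replicate 2. The part of these dividing-cell markers in the course of AT5G23910 was not tested.

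**Figure D4:**
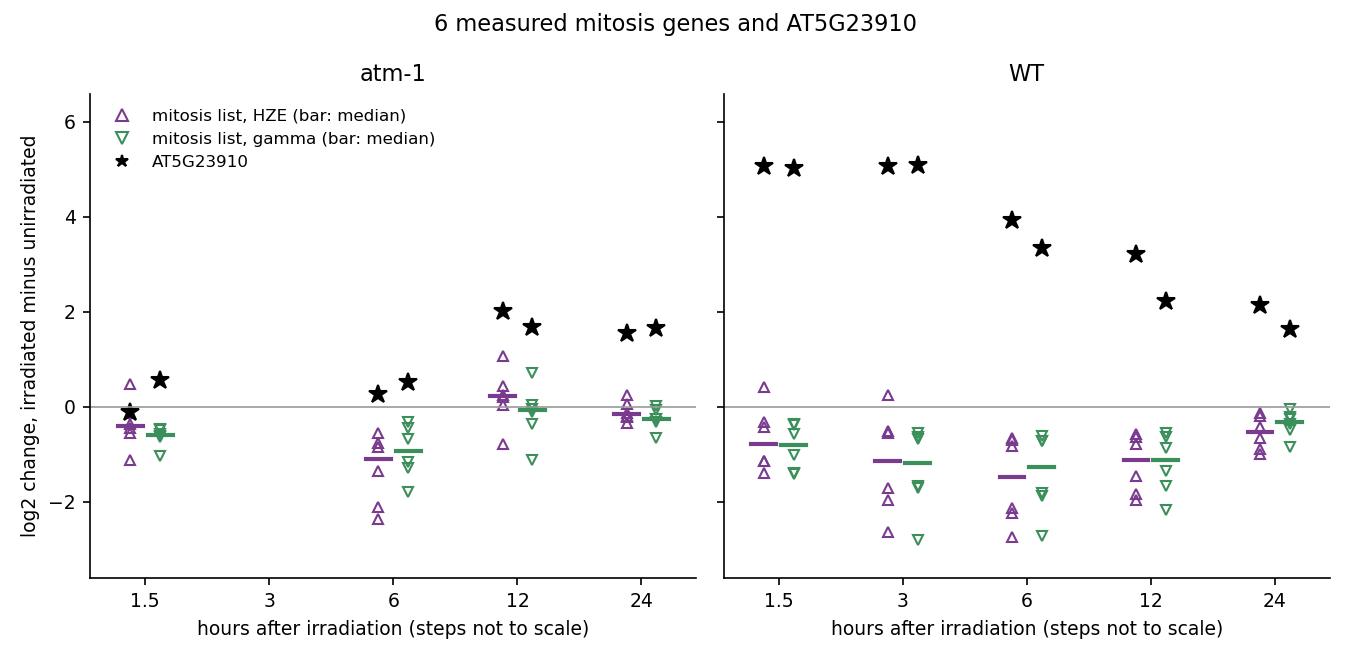
Log2 differences from control for AT5G23910 (stars) and the 6 measured mitosis genes (triangles, with their median as a bar) by hours after HZE, at the left of each hour, and after gamma rays, at the right, in atm-1 and WT. At 6 and 12 h in WT AT5G23910 stays above control while the mitosis genes stay below it, and in atm-1 after HZE AT5G23910 and the 6 mitosis genes all lie higher at 12 h than at 6 h.

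A list of damage response genes had 3 measured members of 29: ATMND1, ATLIG4, the DNA ligase of end joining, and AT4G32700. In WT at 1.5 h after HZE, 2 of 3 were higher and 1 lower, against 20.9% and 20.6% of all genes, the 1 lower being AT4G32700 at -0.42 (adjusted p = 0.0177). In WT at 1.5 h after gamma rays 2 of 3 were higher, against 8.3%. After gamma rays the count was 1 without WT control day 1 replicate 1. ATMND1 was called higher at 1.5 h in WT (4.01 after HZE and 3.56 after gamma rays), and it also has the highest Pearson correlation with AT5G23910. At 12 h in atm-1 it stood 1.08 above control after HZE and 1.31 after gamma rays (adjusted p = 1.45e-07). Unlike AT5G23910, ATMND1 had 12 h minus 6 h differences in atm-1 that did not pass, at 0.22 after HZE (adjusted p = 0.419) and 0.29 after gamma rays (adjusted p = 0.215). As for AT5G23910, the atm-1 minus WT difference of that step did pass for ATMND1. It was 1.36 after HZE (adjusted p = 0.00125, against 0.427% of all genes called higher). After gamma rays it was 1.72 (adjusted p = 2.73e-05, against 1.83%).

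A wider list of 15 repair and recombination genes, drawn up after the annotation had been read, had 4 members higher and 3 lower at 1.5 h in WT after HZE, against 20.9% and 20.6% of all genes. After gamma rays 3 were higher and 1 lower, against 8.3% and 8.84%. Without WT control day 1 replicate 1 these became 1 and 0, and the 1 lower was also lost without the other control or either WT gamma 1.5 h array. The median of the list was -0.12 after HZE and 0.09 after gamma rays, where AT5G23910 stood 5.07 and 5.04 above control. At 12 h after HZE in atm-1, 2 of 15 were higher, against 8.72% of all genes, ATMND1 at 1.08 and ATSMC2, a condensin subunit gene, at 0.75 (adjusted p = 0.00111).

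A list of 9 tubulin and tubulin-folding genes, also drawn up after the annotation had been read, concerned the track on which kinesins move. At 12 h after HZE, 6 of 9 were higher in atm-1 (median 0.39, against 8.72% of all genes), and 5 were higher and 1 lower in WT (median 0.27, against 13.6% and 15.4%). The 5 became 3 without WT HZE 12 h replicate 2 or WT control day 1 replicate 2. TUB5, a beta-tubulin gene, was 1.01 above control in atm-1 (adjusted p = 3.08e-07) and 0.87 in WT (adjusted p = 1.91e-06). At 12 h after gamma rays 6 of 9 were higher in atm-1 (median 0.65, against 11.4%) and 5 of 9 in WT (median 0.43, against 13.6%). The tubulin genes thus had increases in both genotypes at 12 h, and the atm-1 minus WT difference of the 12 h minus 6 h step passed as higher for 1 of 9 after HZE (against 0.427% of all genes) and for 0 of 9 after gamma rays (against 1.83%) in limma's test. At an unadjusted p under 0.05, in either direction, the counts were 2 after HZE and 0 after gamma rays. The share of all genes under that threshold was not computed.

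In genome order the nearest measured genes are AT5G23900 on one side, with AT5G23903 and AT5G23908 lying between and not measured here, and AT5G23920 on the other. At 1.5 h in WT, AT5G23900 differed from control by 0.17 after HZE (adjusted p = 0.227) and 0.16 after gamma rays (adjusted p = 0.335). AT5G23890, one gene further, differed by -0.05 after HZE (adjusted p = 0.827) and 0.03 after gamma rays (adjusted p = 0.905). AT5G23920 lay at -0.94 after HZE (adjusted p = 4.18e-08) and at 0.56 after gamma rays (adjusted p = 0.000587), opposite in sign, where AT5G23910 was 5.07 and 5.04 above control.

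Markers of organs were thinly covered, with 2 of 8 root genes, 1 of 6 shoot photosynthesis genes, 0 of 4 seed storage genes and 0 of 3 pollen genes measured. LHCB4.1, a chlorophyll-binding antenna protein gene, had group means between 12.65 and 13.54. LHCB4.1 was higher at 1.5 h after HZE, by 0.27 in atm-1 (adjusted p = 0.0193) and 0.32 in WT (adjusted p = 0.00579), and at 6 h by 0.42 to 0.47 in both genotypes after both radiations. At 24 h after gamma rays it was lower, at -0.42 in atm-1 (adjusted p = 0.000604) and -0.69 in WT (adjusted p = 4.47e-07). The root hair expansin genes EXPA7 and EXPA18 had group means of 5.15 to 6.22 and 4.63 to 5.90. At 1.5 h in WT both were lower than control, against 20.6% of all genes called lower after HZE and 8.84% after gamma rays. EXPA18 lay at -1.07 after HZE and -0.73 after gamma rays. EXPA7 lay at -0.83 after gamma rays and had a call in the same direction after HZE (adjusted p = 0.000438). In atm-1 at 1.5 h EXPA18 was higher after gamma rays, at 0.53 (adjusted p = 0.0421, against 2.96% of all genes called higher), and the other values did not pass. At 1.5 h after gamma rays the atm-1 change minus the WT change was 1.26 for EXPA18 (limma adjusted p = 0.000407) and 1.12 for EXPA7 (adjusted p = 0.0284). After HZE it was 0.93 for EXPA18 (adjusted p = 0.0156) and 0.75 for EXPA7 (adjusted p = 0.267). The part of these organ markers in the course of AT5G23910 was not tested.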

How the data were processed

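RNA of 44 arrays was measured per probe set. The authors deposited log2 values from RMA in affy after GCOS 1.2, as the submitters' processing notes name them. Settings of RMA, and whether it ran over all arrays at once, are not given in the sources used here. The values were used as deposited. Of 22810 probe sets 64 controls were left out, and 13513 of the remaining 22746 name 1 gene, 503 several and 8730 are unnamed here. By gene ID 13436 matched the TAIR10.1 gene table, used for names and gene order only, and 77 kept the annotation name. The probe set with the highest mean stood for each of 147 genes with several, leaving 13355.

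One group-means model was fitted with limma 3.58.1 in R 4.3.3 (eBayes without trend), with Benjamini-Hochberg adjustment over all genes and calls at an adjusted p under 0.05. The procedure was tested on simulated data. The number of arrays limits the precision. Alternatives covered normalisation, variance trend, dim genes (mean under 5), probe sets, controls of both days, the replicate block and leaving out each array. Named genes are AT5G23910, the 10 most correlated, the measured kinesins, list members with the largest called changes, and genes a count or rank turned on. The gene and the lists were chosen with earlier results of these data known, and the tubulin and the repair lists after reading the annotation. No promoter or protein sequence was used here.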

Additional observations from a re-analysis of the deposited data

Results flagged for a closer look

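Effects on AT5G23910 that differed between groups, by the limma test of the difference itself, were of 4 kinds. The atm-1 change differed from the WT change by -3.67 at 6 h after HZE, by -1.19 at 12 h after HZE and by -2.80 at 6 h after gamma rays. HZE differed from gamma rays by 0.60 at 6 h, 0.99 at 12 h and 0.50 at 24 h in WT, of which the 24 h call was lost after cyclic loess and with array medians aligned. Between groups both sampled in the evening, HZE 6 h differed from gamma 12 h by -1.42 in atm-1 and by 1.72 in WT. The 12 h minus 6 h step differed between atm-1 and WT by 2.47 after HZE and by 2.27 after gamma rays. With 2 arrays a group, no array could be tested as an outlier within its group.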

How the results depend on the processing

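For AT5G23910, 243 of 246 values under other normalisations, filters, controls or fits stayed on the same side of the threshold. Of values called in either setting, 0 reversed direction. HZE minus gamma in WT at 24 h was no longer called after cyclic loess (0.42, adjusted p = 0.0924) or with array medians aligned (0.47, adjusted p = 0.0514). The atm-1 change at 6 h after HZE was called with controls of both days (0.62, adjusted p = 0.00409). The deviations of same-numbered arrays correlated at -0.17 to 0.24 between groups, with a median of 0.01. Of 231 pairs of groups, 40 correlated above 0.1. Pairing by replicate number within part of the groups, such as the HZE groups, was not tested. The replicate block changed no call of the gene, and with it the WT change at 6 h after gamma rays was 3.34 (adjusted p = 3.35e-14). Of 192 values with 1 array left out, 177 stayed on the same side, 14 lost the call, 1 gained it and 0 called values reversed. The direction of uncalled values was not counted. The genotype difference at 24 h after gamma rays, which was not called, ran from -0.35 to 0.37 over the arrays left out. Over the arrays left out, the WT 12 h minus 6 h difference after HZE ran from -0.99 to -0.46 and the genotype difference at 12 h after HZE from -1.44 to -0.94. The atm-1 change at 6 h after gamma rays ran from 0.30 to 0.76. HZE minus gamma ran from 0.34 to 0.86 in WT at 6 h and from 0.37 to 0.63 in WT at 24 h. The unirradiated atm-1 minus WT difference ran from 0.15 to 0.51, and day 2 minus day 1 from -0.69 to -0.33. The causes were not tested. With controls of both days, genes called at 24 h after HZE numbered 2043 against 480 with day 2 controls alone in WT and 1581 against 207 in atm-1, and those of the genotype difference at 24 h 43 against 17 after HZE and 94 against 27 after gamma rays. With dim genes left out, KINESIN-12B and AT4G14330 were not tested, so mitosis counts cover fewer genes than the main ones. In atm-1 these counts became 1 at 12 h after HZE and 3 for the 12 h minus 6 h step after gamma rays. Of 2780 list counts under alternatives, 307 moved by more than 1.5 times.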
